A study of Mus musculus with 8 samples.

Results

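Retnla, Chil3, Chil1 and Arg1 were described probe by probe in lungs of Fra-2 transgenic mice. They were chosen with their ratios of transgenic over wild-type lung known, so that ratio is given for them as a description and without a test. The 4 genes have 5 of the 20794 probes on the array: 1 each for Retnla, Chil3 and Chil1, and 2 for Arg1, called probe A and probe B here. The transgenic lungs came from 4 male mice of 14 weeks that carried a transgene of Fra-2 (the Fosl2 gene) on a C57BL6 x CBA background. They were set against 1 pool of RNA from the lungs of 4 wild-type males of that age and background. Each transgenic mouse was hybridised against the pool on 2 arrays with exchanged dyes, so that its RNA was in Cy5 on the first and in Cy3 on the second. The promoter that drives the transgene is not given in the sources used here, and 0 probes used here carry the name Fosl2, so the transgene could not be followed. The pool is 1 control sample, so no value below holds the spread between wild-type mice.

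Alternative activation is the state that macrophages take up under the type 2 cytokines IL-4 and IL-13, whose receptor signals through the transcription factor STAT6. In mice its classic products are RELM-alpha, a small secreted cysteine-rich protein encoded by Retnla, Ym1, a chitin-binding lectin encoded by Chil3, and arginase 1, the enzyme encoded by Arg1 that splits arginine into ornithine and urea. Chil1 encodes BRP-39, the mouse counterpart of human YKL-40, which like Ym1 has the fold of a chitinase but lacks the enzyme's activity. In the mouse lung these products are known from allergic inflammation, worm infection and fibrosis, and airway epithelium as well as macrophages can make RELM-alpha and Ym1.

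The DNA before the start of 3 of the 4 genes is shown because Retnla and Chil3 are textbook targets of STAT6. The sequences are RefSeq's on build GRCm38.p6 and run 5′ to 3′ along the gene over the 250 bases before its annotated start. They cover chr16:48842359-48842608 (plus strand) for Retnla, chr3:106167565-106167814 (minus strand) for Chil3 and chr1:134181906-134182155 (plus strand) for Chil1. Capitals mark matches to 5 motifs: the STAT6 motif (TTC and GAA with any 4 bases between them), TTCNNNGAA (the spacing of other STAT proteins), TTGCNNAA (C/EBP) and the AP-1 motif of the family of Fra-2 (TGA and TCA with any 1 base between them), each on both strands, and TATAAA (known as the TATA box) on the strand of the gene.
Retnla: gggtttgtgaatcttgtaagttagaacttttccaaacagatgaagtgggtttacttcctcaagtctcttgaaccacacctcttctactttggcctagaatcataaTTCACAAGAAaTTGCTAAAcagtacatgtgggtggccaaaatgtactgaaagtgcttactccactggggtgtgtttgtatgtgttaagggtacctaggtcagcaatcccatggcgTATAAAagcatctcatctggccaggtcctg
Chil3: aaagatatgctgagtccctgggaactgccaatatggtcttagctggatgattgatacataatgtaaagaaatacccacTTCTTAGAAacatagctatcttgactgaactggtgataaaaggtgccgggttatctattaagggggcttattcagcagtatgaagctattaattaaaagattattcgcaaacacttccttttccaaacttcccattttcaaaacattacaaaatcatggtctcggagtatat
Chil1: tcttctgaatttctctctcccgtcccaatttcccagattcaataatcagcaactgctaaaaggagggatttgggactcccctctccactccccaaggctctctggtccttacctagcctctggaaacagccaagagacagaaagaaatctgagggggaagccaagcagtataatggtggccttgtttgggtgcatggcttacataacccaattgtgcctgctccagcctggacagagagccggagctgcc

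In Retnla, TTCACAAGAA lay 145 to 136 bases before the start, TTGCTAAA followed at 134 to 127 bases, and TATAAA stood at 30 to 25 bases. Chil3 held TTCTTAGAA at 172 to 164 bases before its start. No motif searched was in the Chil1 window, and the AP-1 letters were in none of the 3 windows. Of 32851 promoter windows of the same length, 5.85% held the STAT6 motif, 7.02% TTCNNNGAA, 9.56% TTGCNNAA, 6.75% the AP-1 motif and 7.59% TATAAA. The matches are a description of letters, and the arrays did not measure binding.

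Each deposited value is a log2 ratio of 1 probe on 1 array, transgenic over pool, so 1 unit is a factor of 2 and 0 is equal signal. The direction is likely only: the labels name the transgenic RNA first on every array, and how the ratio was formed is not given in the sources used here. If it ran the other way, all signs below would turn. Ratios carry no level, so whether a gene or a lung marker is abundant was not tested. Arrays had 20585 to 20729 usable probes and medians of -0.09 to 0.01. The dye-swapped arrays of a mouse correlated over probes at 0.69, 0.64, 0.59 and 0.39 in mice 1 to 4, and the Cy3 array of mouse 4 stood apart, with an interquartile range of 0.91 against 0.45 to 0.52 on the other 7. By limma on mouse means, 11.1% of 20621 probes were higher and 14.6% lower (Benjamini-Hochberg adjusted p under 0.05), and 9.81% of the probes measured on all arrays were above 0 on 8 of 8. All 5 probes described here were above 0 on 8 of 8 arrays, which their choice made likely.

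Retnla had the highest mean ratio of the 12202 named probes. It gave 5.93 in Cy5 and 5.77 in Cy3 in mouse 1, 6.47 and 6.12 in mouse 2, 5.16 and 5.55 in mouse 3, and 6.57 and 6.12 in mouse 4. The mean was 5.96 ± 0.46 on the log2 scale (SD, n = 4 mice), and single mice lay between 40.9-fold (mouse 3) and 81.0-fold (mouse 4). Mice 2 and 4 were the highest and mouse 3 the lowest, and on every array the probe was 1 of the 2 highest named probes. A mouse's 2 arrays differed by at most 0.45, against 0.99 between the lowest and the highest mouse.

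The ratios of Chil3 were 5.17 in Cy5 and 4.73 in Cy3 in mouse 1, 4.16 and 3.75 in mouse 2, 4.87 and 4.13 in mouse 3, and 4.67 and 3.97 in mouse 4. They averaged 4.43 ± 0.41 (SD, n = 4), and mice lay between 15.6-fold (mouse 2) and 31.0-fold (mouse 1). Mouse 1 was the highest and mouse 2 the lowest, the reverse of their order in Retnla. Ym1 has close relatives in the mouse, Chil4 among them, whose transcripts could bind the same probe. Probe sequences were not used here, so that share was not tested.

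Chil1 gave 2.30 in Cy5 and 2.01 in Cy3 in mouse 1, 1.72 and 1.26 in mouse 2, 2.03 and 1.57 in mouse 3, and 2.00 and 1.02 in mouse 4. Its mean was 1.74 ± 0.31 (SD, n = 4), with mice between 2.81-fold (mouse 2) and 4.45-fold (mouse 1). The order of the mice was that of Chil3, 1, 3, 4 and 2, although mice 2 and 4 differed by less than their own 2 arrays did. The difference of log2 ratios, Chil3 minus Chil1, stayed between 2.47 and 2.81 in the 4 mice (2.69 ± 0.16). Retnla minus Chil3 was less even, at 0.90, 2.34, 0.85 and 2.02 in mice 1 to 4.

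Arg1 gave unlike results on its 2 probes. Probe A read 3.56 in Cy5 and 3.60 in Cy3 in mouse 1 and 3.57 and 2.99 in mouse 3. The same probe read 0.59 and 0.30 in mouse 2 and 0.81 and 0.61 in mouse 4. Mice 1 and 3 were thus 12.0-fold and 9.71-fold over the pool, and mice 2 and 4 were 1.36-fold and 1.63-fold. This grouping of the mice was read from the probe's own values, and the share of all probes that follow it was not counted. The mean of 2.00 ± 1.66 (SD, n = 4) describes none of the 4 mice well.

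Probe B of Arg1 read 0.93 in Cy5 and 0.86 in Cy3 in mouse 1, 0.42 and 0.67 in mouse 2, 0.59 and 0.86 in mouse 3, and 0.30 and 0.51 in mouse 4. Its mean was 0.64 ± 0.21 (SD, n = 4). Mice 1 and 3 again came first, but the span between mice was 0.49 on probe B against 3.13 on probe A. Probe A exceeded probe B by 2.68 and 2.56 in mice 1 and 3, and by -0.10 and 0.30 in mice 2 and 4. The names of Chil1 and of Arg1 probe B are less secure than those of Retnla, Chil3 and Arg1 probe A. Names rest on an offset of 11 between annotation and table, and within 500 numbers of these 2 probes same-gene probes correlated at 0.13 and 0.12 with that offset, against at most 0.10 and 0.10 at 120 others. Near Retnla, Chil3 and Arg1 probe A the values were 0.25, 0.27 and 0.29, against at most 0.11 at any other offset. The check was not repeated for the listed genes below. Among genes named below, the probe of Odc1 and 1 probe each of Msr1, S100a9, Socs2 and Il1rn lie within 500 numbers of Chil1. Their names are no more secure. The probes of Il4, Ager and Sftpc lie further along, where the offset was not checked. So do 1 probe each of Jak1 and Ppargc1b, and the Ass1 probes with means of 0.75 and 0.05.

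**Figure D1:**
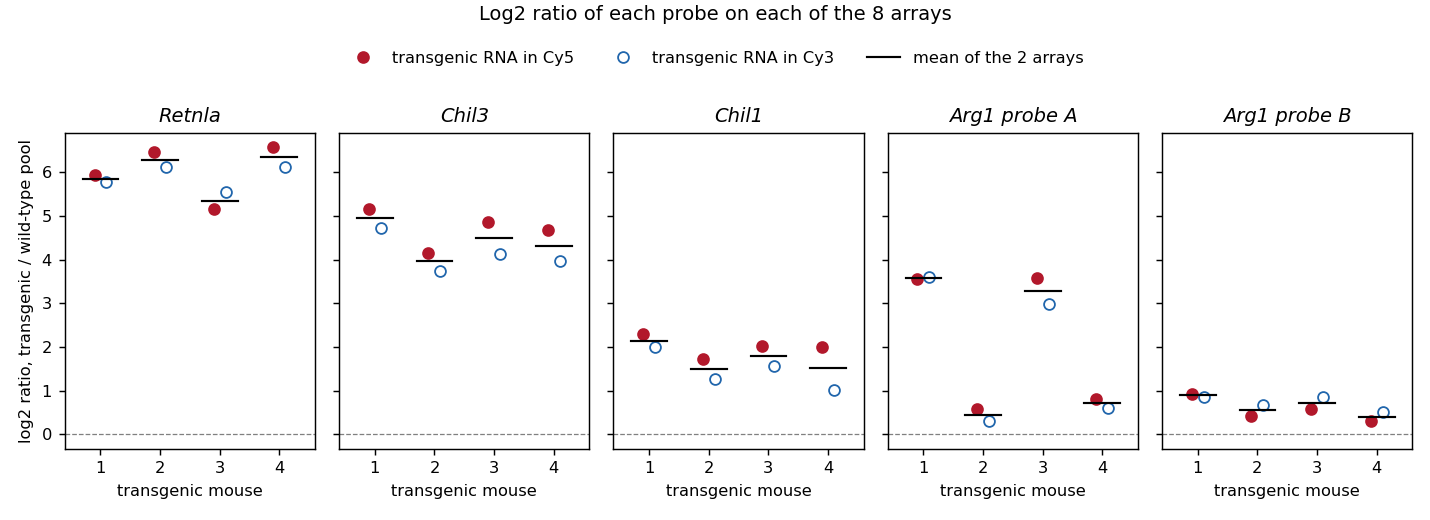
Log2 ratio of transgenic lung over wild-type pool (vertical axis) for each of the 5 probes (panels) and each of the 4 transgenic mice (horizontal axis), with filled points for arrays with the transgenic RNA in Cy5, open points for Cy3 and a bar for the mean of both. Retnla lies between 5.16 and 6.57 on all 8 arrays, while Arg1 probe A lies at 2.99 to 3.60 in mice 1 and 3 and at 0.30 to 0.81 in mice 2 and 4.

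Whether the mice differed from each other is a contrast apart from transgenic over pool, and it was tested for all probes. In a limma F test over the 4 mice, with dye orientation as a covariate, 201 of 20392 probes passed, or 0.986%. Of the 5 probes here 1 passed, Arg1 probe A (adjusted p = 0.0114), which had the second smallest p of all probes tested and spanned 3.13 between its lowest and highest mouse. The other 4 did not pass: Chil3 had adjusted p = 0.121, Retnla 0.199, Chil1 0.304 and Arg1 probe B 0.359 in the same limma test. The 2 arrays of a mouse share its RNA, so the test sets the spread between mice against the spread between dye-swapped arrays. Without mouse 1, 2 or 3 the call of Arg1 probe A was lost (adjusted p = 0.098, 0.0756 and 0.109), and then 0, 1 and 0 probes of all those tested passed, so no difference between mice given below holds without mouse 1 or mouse 3. Without mouse 4 it held (adjusted p = 0.0091), and 495 probes passed.

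Both dye orientations gave ratios above 0 for all 5 probes. Arrays with the transgenic RNA in Cy5 gave higher ratios than those in Cy3 by 0.57 ± 0.17 for Chil3 and 0.55 ± 0.30 for Chil1 (SD, n = 4 mice), in 4 of 4 mice each. By limma on the within-mouse difference neither passed (adjusted p = 0.17 for both, unadjusted p = 0.00203 for Chil3 and 0.00743 for Chil1). With 4 mice, not passing does not show that a probe has no dye shift. Retnla differed by 0.15 ± 0.37 (adjusted p = 0.58), Arg1 probe A by 0.26 ± 0.26 (adjusted p = 0.269) and Arg1 probe B by -0.17 ± 0.16 (adjusted p = 0.373) in that limma test. Of all probes tested 1 passed (0.0049%), while 24.1% of 20392 probes, Chil3 and Chil1 among them, had an unadjusted p under 0.05.

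The 5 probes did not order the mice alike. After the mean of each dye orientation was subtracted, Chil3 and Chil1 correlated at 0.88 over the 8 arrays, Chil3 and Arg1 probe A at 0.86, and the 2 Arg1 probes at 0.83. Retnla correlated with Chil3 at -0.51, with Chil1 at -0.42, with Arg1 probe A at -0.81 and with Arg1 probe B at -0.57. The 8 arrays are 4 mice measured in duplicate and share 1 pool, so these correlations only describe them.

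**Figure D2:**
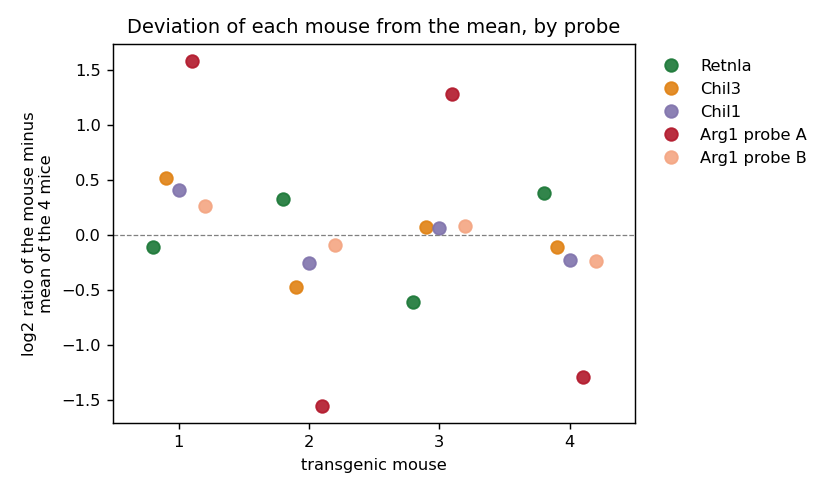
Mouse mean minus the mean of the 4 mice, on the log2 scale (vertical axis), for each transgenic mouse (horizontal axis), with 1 colour per probe. In mice 2 and 4 Retnla sits above its mean and the other 4 probes below theirs, and the points of Arg1 probe A, whose mice span 3.13, lie farthest from 0.

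The named probes whose pattern over the 8 arrays was most like each of the 5 were ranked by the same correlation among 4325 named probes that spanned at least 0.5 between mice. For Arg1 probe A they were Plac8 (0.991), Ctsb (0.990) and Ctsl (0.989), the last 2 being genes of lysosomal cathepsins. Ctsb read 1.48, 0.23, 1.42 and 0.35 in mice 1 to 4, Ctsl 1.56, -0.59, 1.44 and -0.59, and Plac8 0.76, -0.78, 0.42 and -0.67. Each was higher in mice 1 and 3 than in mice 2 and 4, over a smaller span than Arg1 probe A.

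For Chil1 the most alike were Myo1f (0.991), a myosin gene of leukocytes, Sh3bgrl3 (0.989) and Cd8b1 (0.988), a gene of the CD8 coreceptor. Those of Chil3 were Spg21 (0.981), Ank3 (0.979) and the guanylate-binding protein gene Gbp8 (0.976). Their mean ratios were -0.09 for Spg21, -0.84 for Ank3 and 1.07 for Gbp8, and Ank3 was below 0 in all 4 mice. Those of Retnla were Cdkl3 (0.977), Dalrd3 (0.975) and Mfsd4b1 (0.970), whose own mean ratios were 0.01, -0.14 and -0.11, so the likeness is in the order of the mice and not in the size of the ratio. For Arg1 probe B they were Acot7 (0.981), Ptcd1 (0.974) and Srrm2 (0.973), with mean ratios of 0.17, 0.00 and -0.12. These are the highest of 4325 correlations over 8 arrays, and they carry no test.

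**Figure D3:**
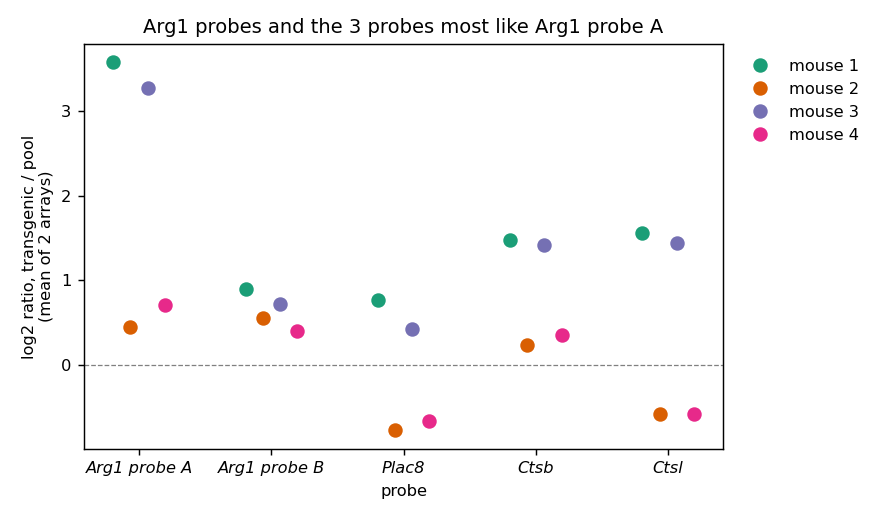
Mouse means of the log2 ratio (vertical axis) for the 2 Arg1 probes and for the 3 named probes most like Arg1 probe A (horizontal axis), with 1 colour per mouse. Mice 1 and 3 lie above mice 2 and 4 in all 5, by the widest margin in Arg1 probe A.

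Relatives of the members and genes of their pathway were counted from lists, with 1 value a gene (the mean of its probes) and the limma test against 0 adjusted over all 8692 named genes. In that test 13.5% of genes were higher and 18.4% lower, and the median ratio over all genes was -0.01. Of 8 other genes of the chitinase family 2 were measured, the lysosomal chitobiase gene Ctbs (-0.10) and Chid1 (-0.03), and neither passed (adjusted p = 0.303 and 0.775 by limma). Of the other 3 resistin-like genes 1 was measured. That was Retn, the resistin gene of fat cells, which fell by 1.03 ± 0.22 (SD, n = 4, adjusted p = 0.00114 by limma), against 5.96 for Retnla. It read -1.28, -1.13, -0.88 and -0.82 in mice 1 to 4. Retn is itself on the list of adipocyte markers. Of the 4 others measured on that list Adipoq (-2.03), Cidec (-1.55) and Fabp4 (-1.16) were lower and Plin1 (0.11) did not pass, and their part in the fall of Retn was not tested.

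In the IL-4 and IL-13 pathway 12 of 28 genes were measured, of which 7 were higher and 2 lower, with a median of 0.27. The ligand gene Il4 did not pass (-0.15 ± 0.25, adjusted p = 0.311 by limma), with 0.22 in mouse 2 and -0.26, -0.30 and -0.25 in mice 1, 3 and 4. Among kinases that stand on the cytokine receptors, Jak3 (0.37) and Tyk2 (0.27) were higher and Jak1 (0.03) did not pass. Of the feedback inhibitors, Socs1 rose by 0.91 ± 0.46 (adjusted p = 0.00718 by limma), and Cish (0.42) and Socs2 (0.26) were higher too. Socs1 was highest in mouse 1 (1.52) and lowest in mouse 4 (0.55). Irf4, a transcription factor of alternative activation, rose by 0.73 ± 0.45 (adjusted p = 0.0135 by limma), with its lowest value in mouse 1 (0.14). Apart from Socs1, every gene called in the list lost its call under at least 1 alternative, Irf4 without mouse 4 or on the Cy3 arrays alone, with adjusted p up to 0.112. The alarmin gene Tslp (-0.39) and Gata3 (-0.43) were lower and also lost their calls. Il13, Il4ra, Il13ra1 and Stat6 are not analysed here.

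Of 30 other genes tied to alternative activation 14 were measured, and 8 were higher and 1 lower, with a median of 0.53. Socs2 is on this list and on that of the IL-4 and IL-13 pathway, and is counted in both. The chemokine genes Ccl17 and Ccl22, whose products bind the receptor of type 2 T cells, rose by 1.81 ± 0.52 and 1.02 ± 0.58 (adjusted p = 0.00127 and 0.00934 by limma). Mrc1, which encodes the mannose receptor of macrophages, rose by 1.24 ± 0.27 (adjusted p = 0.00091) and Trem2, a lipid-sensing receptor gene, by 1.87 ± 0.46 (adjusted p = 0.00091). Folr2, a folate receptor gene of tissue macrophages, rose by 0.80 ± 0.47 (adjusted p = 0.0113). Stab1, a scavenger receptor gene, was lower (-0.42), a call lost without mouse 2 (adjusted p = 0.0684). Tgm2 (-0.26) and Il1rn (-0.16) did not pass, and Msr1 averaged 0.12 over a probe at 0.87 and another at -0.64.

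The mice did not stand in 1 order within these genes either. Ccl8, the gene of a monocyte chemoattractant, read 5.55, 3.51, 4.95 and 4.36 in mice 1 to 4 and differed between mice (adjusted p = 0.0348 in the limma F test). That is the order of Chil3. Ctsk had the same order, at 3.39, 1.86, 3.07 and 2.57, and also differed between mice (adjusted p = 0.0477 in the limma F test). Ccl17 ran otherwise, at 1.08, 1.98, 1.85 and 2.32, lowest in mouse 1. Ccl22 was lowest in mouse 1 too, at 0.45, 0.67, 1.74 and 1.23, and passed that F test (adjusted p = 0.0441 by limma).

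Of 26 genes of arginine and polyamine metabolism 16 were measured, 3 higher and 3 lower, with a median of -0.04. Ass1, the argininosuccinate synthase gene that rebuilds arginine from citrulline, was higher at 0.47 ± 0.09 (adjusted p = 0.00468 by limma), as the mean of probes at 0.61, 0.75 and 0.05. The first of these probes was highest in mouse 1 (0.87) and lowest in mouse 4 (0.31). The second was lowest in mouse 1 (0.22) and highest in mouse 4 (1.25). The small SD is that of their mean, and single probes spread more between mice. Oat, whose enzyme takes ornithine on towards proline and glutamate, fell by 0.51 ± 0.07 (adjusted p = 0.00336 by limma) in 4 of 4 mice. Odc1, which takes ornithine into polyamines, did not pass (0.09), and neither did the arginine transporter gene Slc7a1 (-0.07) or Asl (0.10), which encodes the lyase that releases arginine. The spermidine synthase gene Srm (0.37) and Prmt1 (0.29) were higher, and Sat1 (-0.52) and Azin1 (-0.30) lower, and all of these calls were lost without at least 1 mouse. Both calls that held under all alternatives, Ass1 and Oat, were small beside the 3.28 and 3.58 of Arg1 probe A in mice 3 and 1. They were nearer in size to the 0.45 and 0.71 of that probe in mice 2 and 4, and to the mean of 0.64 of Arg1 probe B.

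**Figure D4:**
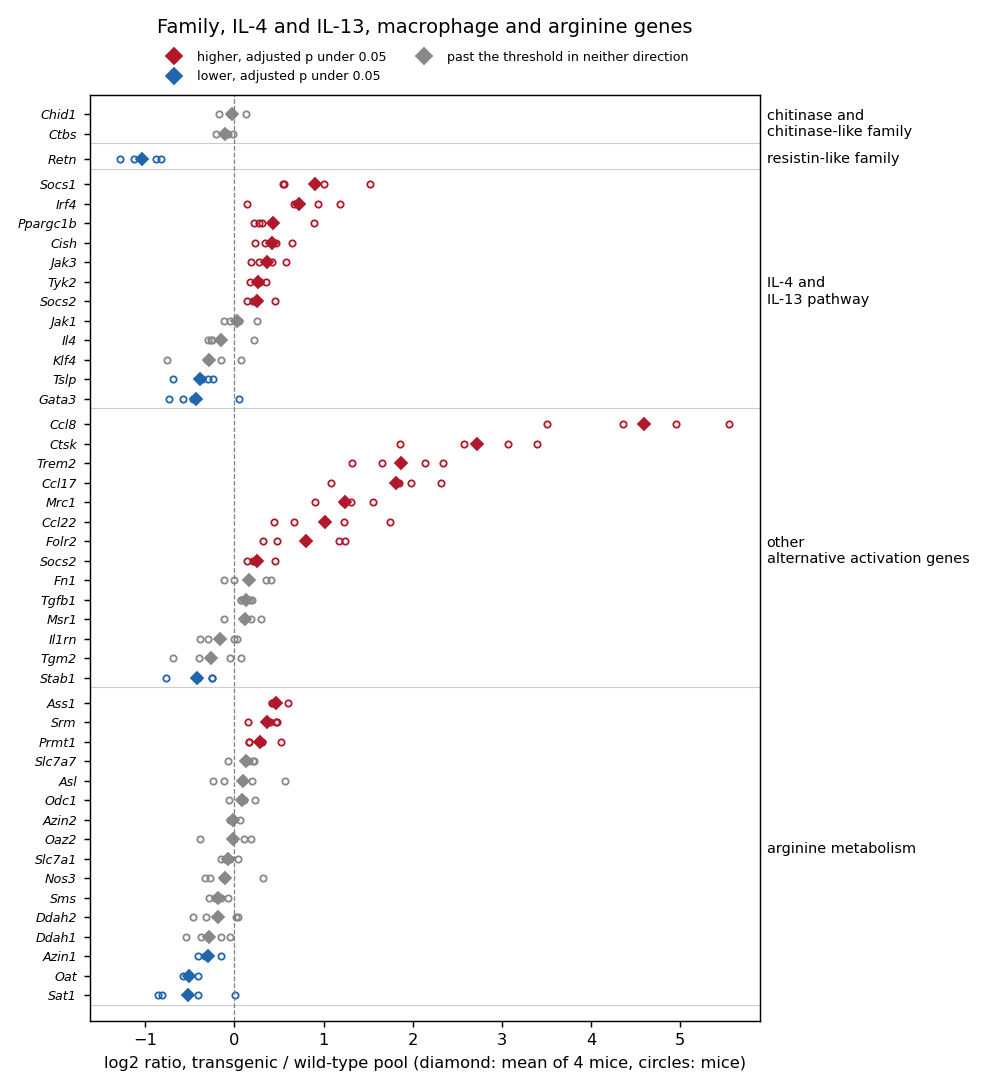
Log2 ratio of transgenic lung over pool (horizontal axis) for measured genes of the 5 lists (rows), with a diamond for the mean of 4 mice and circles for the mice, red for higher and blue for lower at adjusted p under 0.05 by limma, grey for neither. Ccl8 (4.59) and Ctsk (2.72) lie furthest to the right, and the arginine genes lie between -0.52 and 0.47.

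Bulk lung holds many cell types, and fewer or more cells of a type cannot be told apart here from less or more RNA per cell. Of 8 general macrophage markers 4 were measured: C1qa (1.89) and Mrc1 (1.24) were higher, and Lyz2 (-0.17) and Msr1 (0.12) did not pass. Mrc1 and Msr1 are also on the list of alternative activation genes above. The value of Msr1 is the mean of probes at 0.87 and -0.64. With 1 probe a gene in place of the mean it was 0.87 and passed (adjusted p = 0.00204 by limma). C1qa read 2.64, 1.02, 2.36 and 1.55 in mice 1 to 4, the order of Chil3 and Arg1 probe A, and differed between mice (adjusted p = 0.0304 in the limma F test). Of 9 alveolar macrophage markers 3 were measured and all 3 were lower, Marco (-2.54), Fabp4 (-1.16) and Fabp1 (-0.89). Fabp4 is also on the adipocyte list, whose genes Adipoq, Cidec and Retn were lower too.

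Both measured goblet cell markers of 6 were higher, the transcription factor genes Foxa3 (1.48 ± 0.43, adjusted p = 0.00143 by limma) and Spdef (1.42 ± 0.58, adjusted p = 0.00336). Foxa3 read 1.04, 1.69, 1.21 and 1.98 in mice 1 to 4 and Spdef 1.02, 2.02, 0.83 and 1.80, so mice 2 and 4 were the highest, as for Retnla. In the limma F test between mice neither passed (adjusted p = 0.282 for Foxa3 and 0.0616 for Spdef), nor did Retnla. Of 6 epithelial markers 5 were measured, with a median of -0.13, and Cdh1 (0.49) and Sftpb (0.37) were higher. Epcam (-0.20), Sftpc (-0.13) and Cyp2f2 (-0.93, adjusted p = 0.104 by limma) did not pass. The call of Sftpb was lost without mouse 1 or 2 and on the Cy3 arrays alone, with adjusted p up to 0.152 by limma. Cyp2f2, a cytochrome gene of club cells, read -1.71 and -2.15 in mice 1 and 3, where Arg1 probe A was high, and 0.11 and 0.04 in mice 2 and 4, and differed between mice (adjusted p = 0.017 in the limma F test). Of the other markers, Cidec, S100a8 and 1 probe of Ltf also passed that test (adjusted p = 0.0438, 0.0353 and 0.032).

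The 2 measured eosinophil granule genes of 6 markers, Epx (0.17) and Prg2 (0.01), did not pass. Of 10 neutrophil markers 7 were measured, 3 higher and 2 lower: the granule genes Ngp (0.91), Ltf (0.88) and Camp (0.48) were higher and S100a8 (-1.09) and S100a9 (-0.42) lower. The call of Ltf was lost without mouse 1, 2 or 4 (adjusted p up to 0.0844 by limma) and that of S100a8 without mouse 4 (0.0551). That of S100a9, the mean of probes at -1.04 and 0.19, was lost without mouse 2, 3 or 4 and on the Cy3 arrays alone (adjusted p up to 0.104). Of 5 mast cell and basophil markers 3 were measured, and Mcpt8, the basophil protease gene, was higher (0.51), a call lost without mouse 1, 2 or 4. Of 4 lung markers Sftpc (-0.13) did not pass and the alveolar gene Ager was lower (-0.78), and 0 of 4 monocyte markers were measured. The part of these cell types in the ratios of Retnla, Chil3, Chil1 and Arg1 was not tested.

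**Figure D5:**
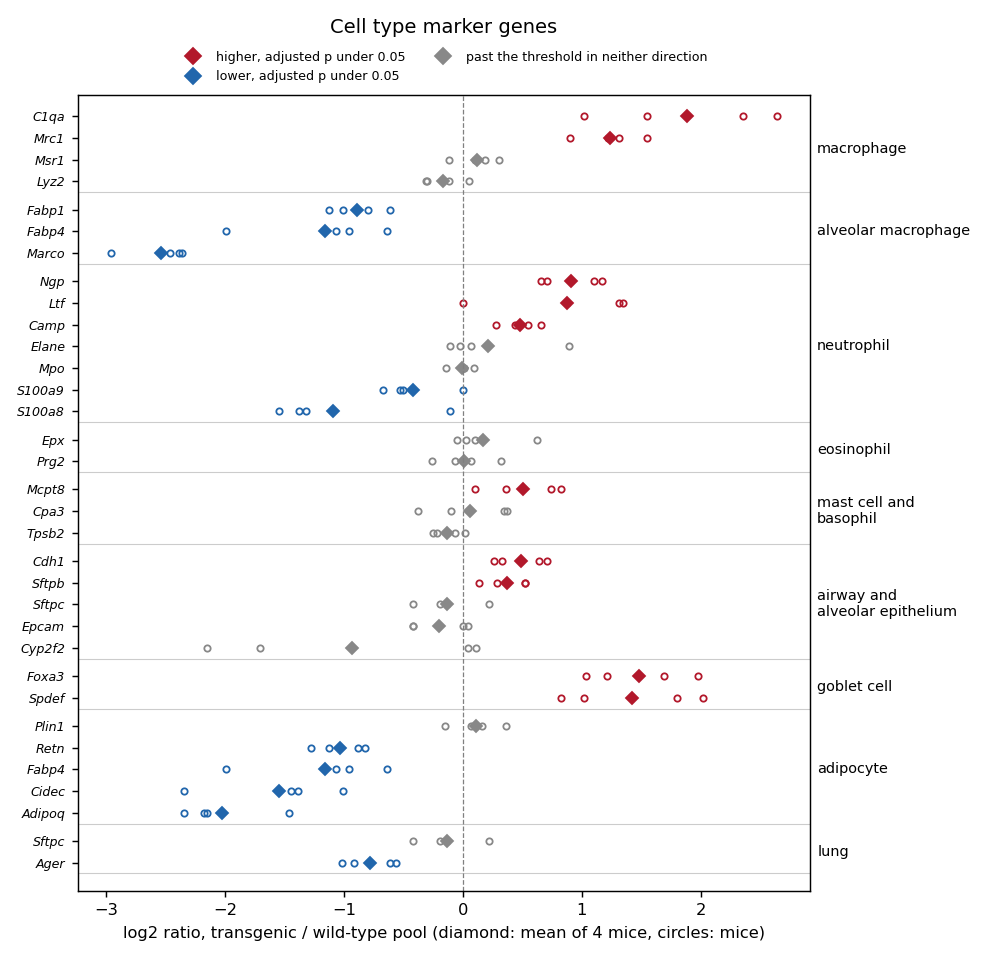
Log2 ratio of transgenic lung over pool (horizontal axis) for measured cell type markers (rows, grouped by cell type), with a diamond for the mean of 4 mice and circles for the mice, red for higher and blue for lower at adjusted p under 0.05 by limma, grey for neither. Alveolar macrophage genes lie to the left, C1qa and Mrc1 and the goblet cell genes to the right, and the 2 eosinophil genes near 0.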

How the data were processed

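Lung RNA of 4 transgenic mice was hybridised with a wild-type pool on 2-colour arrays, indirectly labelled per the labels' protocols. The deposited values are log2 ratios made by the authors; how they corrected background, normalized and centred is not stated in any label. The 498 values beyond 10 in size were set to missing, and 706 were missing as deposited. Names pair annotation numbers up to 20237 with the table row 11 higher, where 4802 pairs of same-gene probes correlated at 0.224 (Spearman), against at most 0.054 at 120 other offsets. They gave 12296 probes 1 name, updated through RefSeq (GRCm38.p6), and left 8498 unnamed. The 2 arrays of a mouse were averaged, and limma 3.58.1 in R 4.3.3 tested mouse means against 0 (4.49 prior degrees of freedom), differences between mice and dye differences, each tested on simulated data first. Python 3.11.15 made the motif search and plots. Each probe of the 4 genes was named; listed genes were named by size, up to 6 past the threshold and 3 not past it, and up to 4 per marker list. Jak3, Tyk2, Socs2, Folr2, Stab1, Msr1, Slc7a1, Odc1, Asl and S100a9 fall outside this, their values having been known when they were named. The members, lists and motifs were chosen with earlier results of these data known. The 4 mice and the 1 wild-type pool limit the precision.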

Additional observations from a re-analysis of the deposited data

Results flagged for a closer look

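None of the 5 probes of Retnla, Chil3, Chil1 and Arg1 had a mouse far from the other 3. Among 77 items examined, 5 listed genes had 1 mouse whose gap to the nearest of the others passed Dixon's critical value for 4 samples, and chance marks about 1 in 20. The transcriptional coactivator gene Ppargc1b read 0.89 in mouse 4, against 0.22 to 0.31 in the other mice. Its probes read 0.38, 0.62 and 1.66 in mouse 4. The mean of the gene was 0.11 on the Cy5 arrays alone and 0.74 on the Cy3 arrays alone. Without the Cy3 array of mouse 4, which stood apart, it was 0.27. Il4 read 0.22 in mouse 2, against -0.30 to -0.25 in the others. Ass1 read 0.60 in mouse 3, against 0.42 to 0.44 in the others, as the mean of probes that ordered the mice unlike each other. Marco read -2.96 in mouse 3, against -2.46 to -2.36 in the others. S100a8 read -0.11 in mouse 1, against -1.55 to -1.32 in the others.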

How the results depend on the processing

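The mean ratios of the 5 probes kept their sign and moved by less than 1 SD under all 11 alternatives: Retnla lay between 5.70 and 6.16, Chil3 between 4.15 and 4.72, Chil1 between 1.47 and 2.01, Arg1 probe A between 1.48 and 2.52 and Arg1 probe B between 0.56 and 0.73. Leaving out the wide Cy3 array of mouse 4, or scaling arrays to 1 interquartile range, was added after seeing the data. Without a mouse, probes called higher numbered 1011 to 1890 (2283 with all) and lower 1536 to 2193 (3019), and pathway genes 10 to 13 higher (17) and 2 to 5 lower (7). On the Cy3 arrays alone 1208 probes were higher and 1982 lower, and 11 pathway genes higher. Probes that differ between mice numbered 0 to 495 without a mouse (201 with all), 84 without the dye covariate, 381 without the wide array and 553 after scaling. Arg1 probe A had adjusted p = 0.0091 to 0.109 without a mouse and 0.00273 to 0.0162 under the other alternatives. Probes with a dye difference numbered 0 to 1 without a mouse and 32 after scaling, when the dye difference of Retnla was 1.19 and that of Chil3 1.30. Of 24 pathway genes called, 11 kept their call under all alternatives, and of 17 marker genes called, 12 did. With all 8 arrays in the fit and the mouse as a random block, which pairs the arrays of a mouse, 2803 probes were higher and 3763 lower. Signal over background is unknown.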
